A study of Mus musculus with 18 samples.

Results

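Tnfsf10, Fas, Fadd and Cflar are 4 genes of extrinsic apoptosis, the route by which a ligand outside the cell starts a caspase cascade within it. They were taken by name from a table of 16248 genes measured in 18 RNA-seq libraries of endothelial cells (ECs), and all 4 names were present. ECs were sorted as live CD45-negative, CD31-positive cells from female FVB mice. The 6 groups held 3 libraries each. Normal ECs were those of wild-type mammary fat pad, MMTV-PyMT ECs from tumours that arise on their own where the MMTV promoter drives the polyoma middle T oncogene in mammary epithelium, and implanted ECs from tumours grown in the fat pad of FVB mice from cultured MMTV-PyMT tumour cells. Each tissue was injected with PBS or with cGAMP, which is a ligand and activator of the adaptor protein STING, and was taken after 3 hours. A legend of the study gives 3 mice a group from 3 independent experiments, and which library belongs to which experiment was not stated.

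Tnfsf10 encodes TRAIL, a ligand of the tumour necrosis factor family that lies on the cell surface or is shed from it. Fas is the receptor of Fas ligand. A ligand-bound TRAIL or Fas receptor gathers the adaptor Fadd, and Fadd in turn gathers the protease caspase 8 (Casp8) into a death-inducing complex. Cflar encodes c-FLIP, a caspase 8 relative without protease activity that takes a place in the same complex and can limit caspase 8 activation. TRAIL is a known interferon-stimulated gene, Fas is a known target of p53 and of inflammatory signals, and c-FLIP is a known NF-kB target.

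Values are FPKM, that is, fragments per kilobase of exon after scaling of the libraries. Levels of different genes can be compared only roughly on this scale, since the length is that of all annotated exons of a gene and not of the transcripts present. Changes are differences of log2(FPKM + 1), a scale that understates the change of low genes such as Fadd. Adjusted p-values are from limma, fitted over 18 libraries with 13983 tested genes and adjusted with the Benjamini-Hochberg method. A gene passed when its adjusted p was under 0.05. All 4 genes were among those tested, that is, at 1 FPKM or more in at least 3 libraries. The reads that the FPKM values gave back summed to between 8916799 and 11852755 per library.

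The endothelial label was checked first. All 8 endothelial markers were listed, with summed FPKM from 715 to 1731 per library. Transcripts of other cell types were present as well. The 6 epithelial markers summed to 838 to 905 FPKM in MMTV-PyMT PBS and 581 to 819 FPKM in MMTV-PyMT cGAMP, to 345 to 494 and 245 to 533 FPKM in implanted PBS and cGAMP, and to 313 to 395 and 355 to 419 FPKM in normal PBS and cGAMP. The 5 mural cell markers summed to 702 to 966 FPKM in normal libraries and to 155 to 399 FPKM in the tumour libraries. Of 10 leukocyte markers 7 were listed (Itgam, Nkg7 and S100a8 were not), and implanted cGAMP 2 stood apart with a sum of 213 FPKM, against 44.9 and 52.7 FPKM in the other implanted cGAMP libraries and 26.2 to 64.4 FPKM in implanted PBS. The rise was not limited to that library for every marker, since Ptprc stood at 1.70 to 9.24 FPKM in implanted cGAMP and at 0.37 to 1.09 FPKM in implanted PBS. Of the 7 leukocyte markers, 1 passed as higher and 0 as lower with cGAMP in implanted ECs, where 20.3% of all tested genes passed as higher and 18.8% as lower. The 4 fibroblast markers summed to 182 to 212 FPKM in implanted PBS and to 198 to 476 FPKM in implanted cGAMP, again highest in implanted cGAMP 2. With cGAMP in implanted ECs 3 of them passed as higher, against the same 20.3% of all tested genes. Neither the 3 adipocyte markers nor Fasl, the gene of Fas ligand, were listed. The table holds only genes above 0 in all 18 libraries, so a gene that is not listed may still be present in some groups. In sorted bulk RNA, more cells of a type and more RNA per cell cannot be told apart.

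The genes lie on 4 chromosomes (coordinates are GENCODE M21 on GRCm38/mm10, counted from 1). Tnfsf10 (ENSMUSG00000039304.11) is at chr3:27317028-27342427 on the plus strand, with 5266 bases of exon. Fas (ENSMUSG00000024778.13) is at chr19:34290666-34327772 on the plus strand, with 2062 bases of exon. Cflar (ENSMUSG00000026031.15) is at chr1:58711508-58758884 on the plus strand, with 12669 bases of exon, and Casp8 (ENSMUSG00000026029.14) follows it on the same strand at chr1:58795374-58847503. Fadd (ENSMUSG00000031077.7) is at chr7:144577318-144582463 on the minus strand. The antisense gene Faddos overlaps 239 bases (6.12%) of its exons, and its own mean level was 0.134 to 0.685 FPKM across the groups. The use of strand in the counting was not stated, so Fadd and Faddos reads in that overlap cannot be told apart.

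The promoters of the 3 members that rose after cGAMP are shown because their rise is the result that follows. Each window is 300 bases of RefSeq on GRCm38.p6, running from 250 bases before the annotated start to 50 bases after it, and all 4 members were matched. Windows were searched on both strands for GAAANNGAA (the core of the interferon-stimulated response element), TTCNNNGAA (the gamma-activated site of interferon signalling) and GGANTTTCC (a kB core). These were found in 8.56%, 8.3% and 1.25% of 32851 mouse promoter windows of the same length, and capitals mark a match.

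Tnfsf10, chr3:27316827-27317126, plus strand: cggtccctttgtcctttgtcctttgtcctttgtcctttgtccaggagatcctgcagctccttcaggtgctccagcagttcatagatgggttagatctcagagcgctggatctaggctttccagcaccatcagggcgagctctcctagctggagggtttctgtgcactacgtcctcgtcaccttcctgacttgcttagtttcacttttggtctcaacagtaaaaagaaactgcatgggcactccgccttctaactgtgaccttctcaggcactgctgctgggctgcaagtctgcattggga
Fas, chr19:34290409-34290708, plus strand: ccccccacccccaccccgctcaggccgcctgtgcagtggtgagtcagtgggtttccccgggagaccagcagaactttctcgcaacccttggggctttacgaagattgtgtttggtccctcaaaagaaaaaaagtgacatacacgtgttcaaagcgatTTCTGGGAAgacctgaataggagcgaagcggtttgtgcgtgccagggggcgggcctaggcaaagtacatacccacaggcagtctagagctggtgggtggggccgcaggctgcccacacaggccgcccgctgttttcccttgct
Cflar, chr1:58711241-58711540, plus strand: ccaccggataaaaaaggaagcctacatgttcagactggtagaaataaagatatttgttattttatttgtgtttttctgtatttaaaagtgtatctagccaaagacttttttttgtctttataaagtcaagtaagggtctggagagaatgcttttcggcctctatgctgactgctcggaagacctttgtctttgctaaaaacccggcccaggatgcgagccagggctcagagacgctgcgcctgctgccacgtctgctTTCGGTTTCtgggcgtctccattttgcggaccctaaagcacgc

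The Fas window held a gamma-activated letter pattern, TTCTGGGAA, at chr19:34290566-34290574, which is 93 to 85 bases before the RefSeq start. The Cflar window held the response element core on the minus strand, read on the plus strand as TTCGGTTTC, at chr1:58711498-58711506, from 7 to 15 bases after the RefSeq start. The GENCODE start of Cflar, chr1:58711508, differs from the RefSeq start, and the site lies before it. The windows of Tnfsf10 and of Fadd (chr7:144582392-144582691, minus strand) held none of the 3 patterns, which says only that these letters are not in these 300 bases.

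Tnfsf10, the ligand, was the member with the widest range. In normal ECs it stood at 21.04, 25.28 and 24.45 FPKM in the PBS libraries and at 46.1, 39.1 and 34.5 FPKM in the cGAMP libraries. In MMTV-PyMT ECs it stood at 8.14, 7.22 and 7.64 FPKM under PBS and at 36.2, 54.8 and 50.7 FPKM under cGAMP. In implanted ECs it stood at 22.83, 19.67 and 21.02 FPKM under PBS and at 208, 151 and 169 FPKM under cGAMP. In each tissue every cGAMP library lay above every PBS library, and the lowest implanted cGAMP library was 2.76 times the highest library of any other group. Mean FPKM rose 1.69-fold in normal ECs (log2 change 0.73, SE 0.15, adjusted p = 0.00149, limma), 6.16-fold in MMTV-PyMT ECs (2.46, SE 0.15, adjusted p = 4.84e-09) and 8.31-fold in implanted ECs (2.99, SE 0.15, adjusted p = 3.38e-10).

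The tissues differed both in where Tnfsf10 began and in where it ended. In order of mean FPKM, the groups were MMTV-PyMT PBS (7.67 ± 0.461, SD, n = 3), implanted PBS (21.2 ± 1.59), normal PBS (23.6 ± 2.25), normal cGAMP (39.9 ± 5.82), MMTV-PyMT cGAMP (47.2 ± 9.77) and implanted cGAMP (176 ± 29.4). Implanted PBS and normal PBS overlapped, as did normal cGAMP and MMTV-PyMT cGAMP, while every other neighbouring pair in this order was apart. The MMTV-PyMT ECs thus began lowest, with a fitted PBS difference from normal of -1.502 log2 units (adjusted p = 5.37e-07), and their cGAMP level was not separated from that of normal ECs (0.22, 95% interval -0.09 to 0.54, adjusted p = 0.214). Without MMTV-PyMT cGAMP 1, the lowest library of its group, this last difference was 0.40 and passed. The MMTV-PyMT PBS libraries, lowest in Tnfsf10, also had endothelial sums of 715 to 872 FPKM, against 1003 to 1129 FPKM in normal PBS and 1012 to 1284 FPKM in implanted PBS, and the highest epithelial sums (838 to 905 FPKM). The part of either in the resting Tnfsf10 level was not tested.

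**Figure D1:**
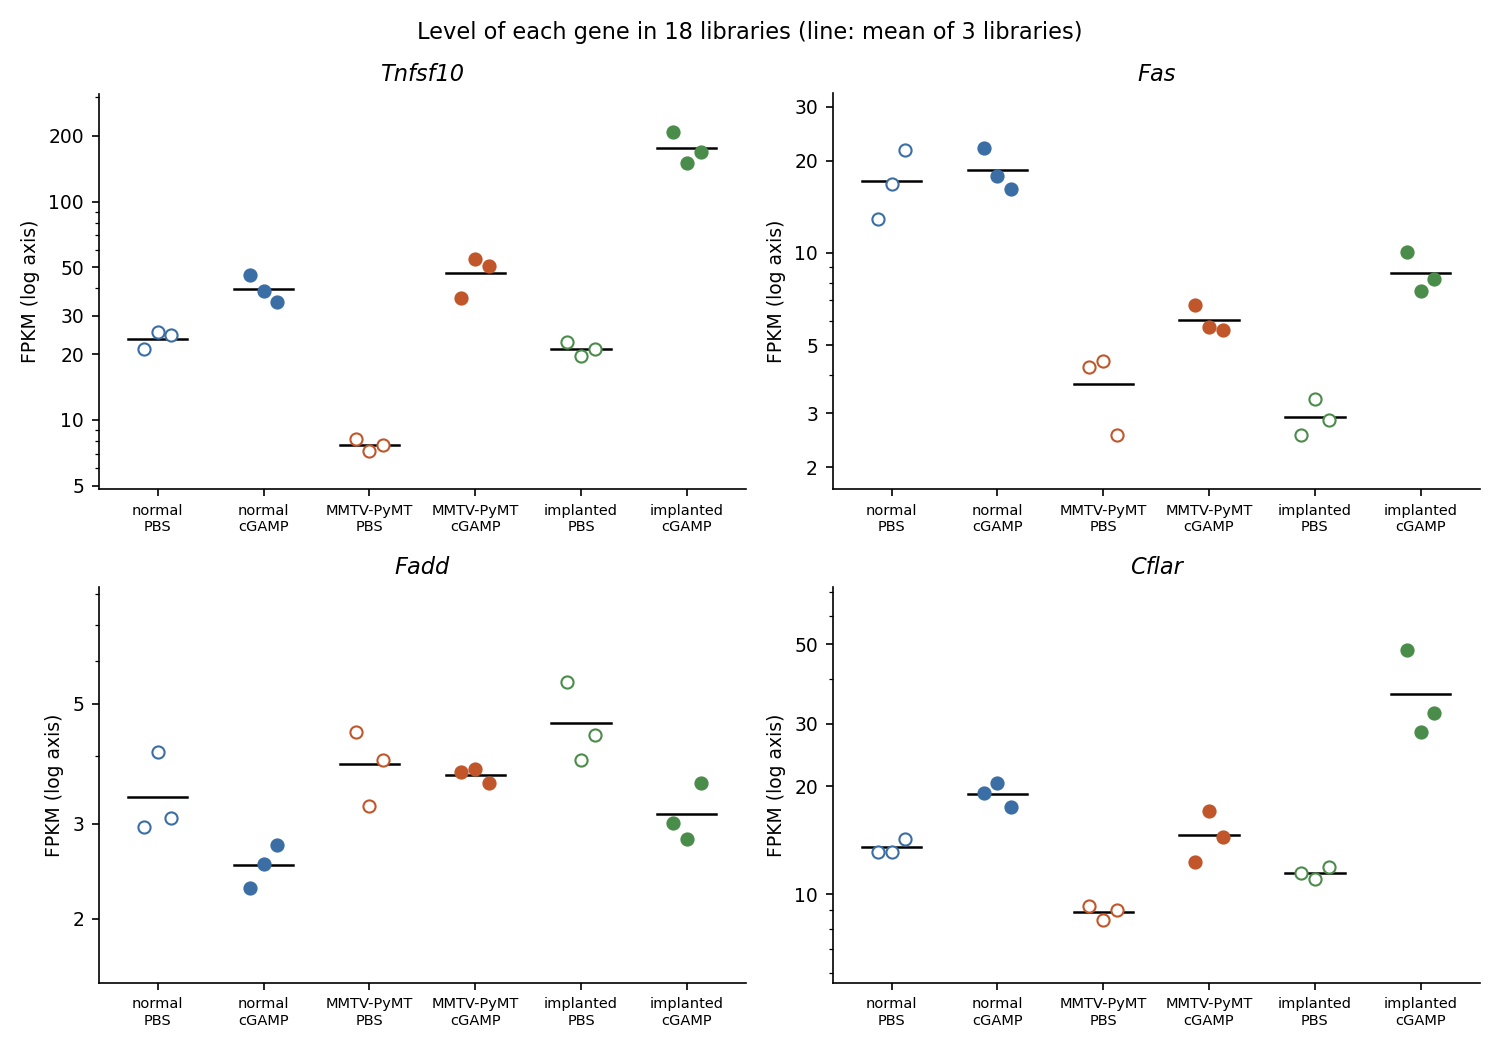
FPKM of Tnfsf10, Fas, Fadd and Cflar (log axis) in each of the 18 libraries by group, with open points for PBS, filled points for cGAMP and a line at the mean of 3 libraries. Tnfsf10 and Cflar are highest in implanted cGAMP, at 176 and 36.2 FPKM on average, Fas is highest in both normal groups, and Fadd stays between 2.28 and 5.48 FPKM.

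Fas, the receptor, was ordered mainly by tissue. It stood at 12.9, 16.8 and 21.6 FPKM in normal PBS and at 22.1, 17.8 and 16.2 FPKM in normal cGAMP. The MMTV-PyMT ECs held 4.24, 4.43 and 2.56 FPKM under PBS and at 6.76, 5.72 and 5.61 FPKM under cGAMP. The implanted ECs held 2.54, 3.34 and 2.85 FPKM under PBS and at 10.03, 7.49 and 8.19 FPKM under cGAMP. All 6 normal libraries lay above all 12 tumour libraries, and in both tumours the cGAMP libraries lay above the PBS libraries, whereas the normal groups overlapped.

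The rise of Fas in implanted ECs was 2.95-fold in mean FPKM (log2 change 1.29, SE 0.18, adjusted p = 3.78e-05, limma). In MMTV-PyMT ECs it was 1.61-fold (0.59, SE 0.18, adjusted p = 0.0466), close to the threshold. That call was lost in 6 of the 9 other settings of the fit and in 12 of the 18 fits that each left out 1 library, with values from 0.39 (without MMTV-PyMT PBS 3, the low library at 2.56 FPKM) to 0.74. In normal ECs the change was 0.14 (95% interval -0.25 to 0.52, adjusted p = 0.608) and was -0.04 without normal PBS 1. Under PBS, Fas in implanted ECs was below normal, at a log2 difference of -2.19 (adjusted p = 1e-07), and in MMTV-PyMT ECs at -1.93 (adjusted p = 3.95e-07). Under cGAMP these differences were -1.04 (adjusted p = 0.00016) and -1.48 (adjusted p = 9.5e-06), so that implanted cGAMP still held 0.46 times the mean FPKM of normal cGAMP. Several other transcripts moved with this difference. All 5 mural markers were listed and summed to 702 to 966 FPKM in normal and 155 to 399 FPKM in tumour libraries. Of the leukocyte markers, Ptprc averaged 4.07 FPKM in normal PBS against 0.287 in MMTV-PyMT and 0.808 in implanted PBS, Cd3e 3.64 against 0.106 and 0.856, and Cd79a 3.38 against 0.218 and 0.365, although the sums over all 7 listed leukocyte markers overlapped between normal PBS (26.9 to 61.9 FPKM) and implanted PBS (26.2 to 64.4 FPKM). The lymphatic marker Lyve1 averaged 20.4 FPKM against 5.07 and 7.83, while the 3 listed lymphatic markers (of 4) summed to 42.1 to 48.9 FPKM in normal, 17.7 to 26.9 in MMTV-PyMT and 47.4 to 64.3 in implanted PBS. The part of these in the Fas difference was not tested.

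Fadd, the adaptor that both TRAIL and Fas receptors use, had the narrowest range of the members, from 2.28 to 5.48 FPKM. Its mean was the lowest of the members in 4 of the 6 groups, and Fas was lower in MMTV-PyMT PBS and in implanted PBS. It stood at 2.95, 4.06 and 3.07 FPKM in normal PBS and at 2.28, 2.53 and 2.73 FPKM in normal cGAMP. The MMTV-PyMT ECs held 4.44, 3.24 and 3.93 FPKM under PBS and at 3.73, 3.79 and 3.56 FPKM under cGAMP. The implanted ECs held 5.48, 3.94 and 4.38 FPKM under PBS and at 3.00, 2.80 and 3.57 FPKM under cGAMP. In normal and in implanted ECs all cGAMP libraries lay below all PBS libraries, and in MMTV-PyMT ECs they lay within the PBS range.

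Fadd fell in implanted ECs, to 0.679 times the PBS mean (log2 change -0.44, SE 0.13, adjusted p = 0.0117, limma). Without implanted PBS 1, its highest library at 5.48 FPKM, the change was -0.33 and no longer passed, and it did not pass when only the libraries of implanted tumours were fitted (adjusted p = 0.0603). With scaling by total reads it was -0.67. In normal ECs the change of -0.30 (95% interval -0.57 to -0.04) did not pass after adjustment (adjusted p = 0.0758). In MMTV-PyMT ECs it was -0.05 (95% interval -0.31 to 0.22, adjusted p = 0.861), and 0.04 without MMTV-PyMT PBS 1. Fadd was read from 92 to 230 reads per library, the fewest of the members apart from Fas in tumours (49 to 173 reads).

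Cflar, the inhibitor, rose with cGAMP in each tissue as Tnfsf10 did, over a narrower range, but the tissue patterns differed. The MMTV-PyMT minus normal difference of the cGAMP effect was 0.18 for Cflar (adjusted p = 0.653, limma) and 1.73 for Tnfsf10 (adjusted p = 0.000439). Under cGAMP, MMTV-PyMT and normal means were 14.6 and 19.0 FPKM for Cflar, and 47.2 and 39.9 FPKM for Tnfsf10. Cflar stood at 13.2, 13.1 and 14.2 FPKM in normal PBS and at 19.2, 20.5 and 17.5 FPKM in normal cGAMP. In MMTV-PyMT ECs it stood at 9.26, 8.47 and 9.03 FPKM under PBS and at 12.3, 17.1 and 14.5 FPKM under cGAMP. In implanted ECs it stood at 11.49, 10.99 and 11.89 FPKM under PBS and at 48.2, 28.4 and 32.1 FPKM under cGAMP. All cGAMP libraries lay above all PBS libraries of their tissue, and implanted cGAMP 1 was the highest library for Cflar as it was for Tnfsf10. That library also had the highest endothelial sum of the implanted cGAMP libraries (1731 FPKM, against 1031 and 1245) and the lowest epithelial sum (245 FPKM, against 533 and 453). In implanted cGAMP, and in MMTV-PyMT cGAMP with endothelial sums of 774, 1048 and 934 FPKM, the 3 libraries had the same order for Cflar, Tnfsf10 and the endothelial sum, whereas in normal cGAMP (912, 1003 and 1051 FPKM) neither gene had the order of that sum. The part of this in the cGAMP changes was not tested. Cflar rose 1.41-fold in normal ECs (log2 change 0.47, SE 0.15, adjusted p = 0.0234, limma), 1.64-fold in MMTV-PyMT ECs (0.64, SE 0.15, adjusted p = 0.00875) and 3.16-fold in implanted ECs (1.54, SE 0.15, adjusted p = 4.63e-07).

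The smaller of these rises depended on single libraries. In normal ECs the call was lost without normal PBS 1 (0.45), normal PBS 2 (0.45), normal cGAMP 1 (0.46) or normal cGAMP 2 (0.41). Without MMTV-PyMT cGAMP 2 the MMTV-PyMT change was 0.53 and did not pass. In implanted ECs the rises of Tnfsf10, Fas and Cflar passed whichever library was left out. Without implanted cGAMP 1 they were 2.86 for Tnfsf10, 1.18 for Fas and 1.33 for Cflar, and without implanted cGAMP 2, where leukocyte and fibroblast transcripts were highest, they were 3.09, 1.37 and 1.70.

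Counted together, 2 of the 4 members (Tnfsf10 and Cflar) passed as higher in normal ECs, where 13.7% of all tested genes passed as higher and 18.2% as lower. In MMTV-PyMT ECs 3 members passed as higher (Tnfsf10, Fas and Cflar) against 7.42% of all genes, and none as lower against 4.57%. Of these calls, that of Fas was lost in 6 of the 9 other settings and in 12 of the 18 fits without 1 library. The Cflar call was lost in 1 of those 18 fits. In implanted ECs the same 3 passed as higher against 20.3% of all genes, and Fadd passed as lower against 18.8%. With the further demand of a 2-fold change, 0 members were higher in normal ECs (3.02% of all genes), 1 in MMTV-PyMT ECs (Tnfsf10, 2.49%) and 3 in implanted ECs (6.13%). The median change over the members was not read further, since the members have opposite roles, and the median over all tested genes was -0.04 (normal), -0.04 (MMTV-PyMT) and -0.01 (implanted).

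**Figure D2:**
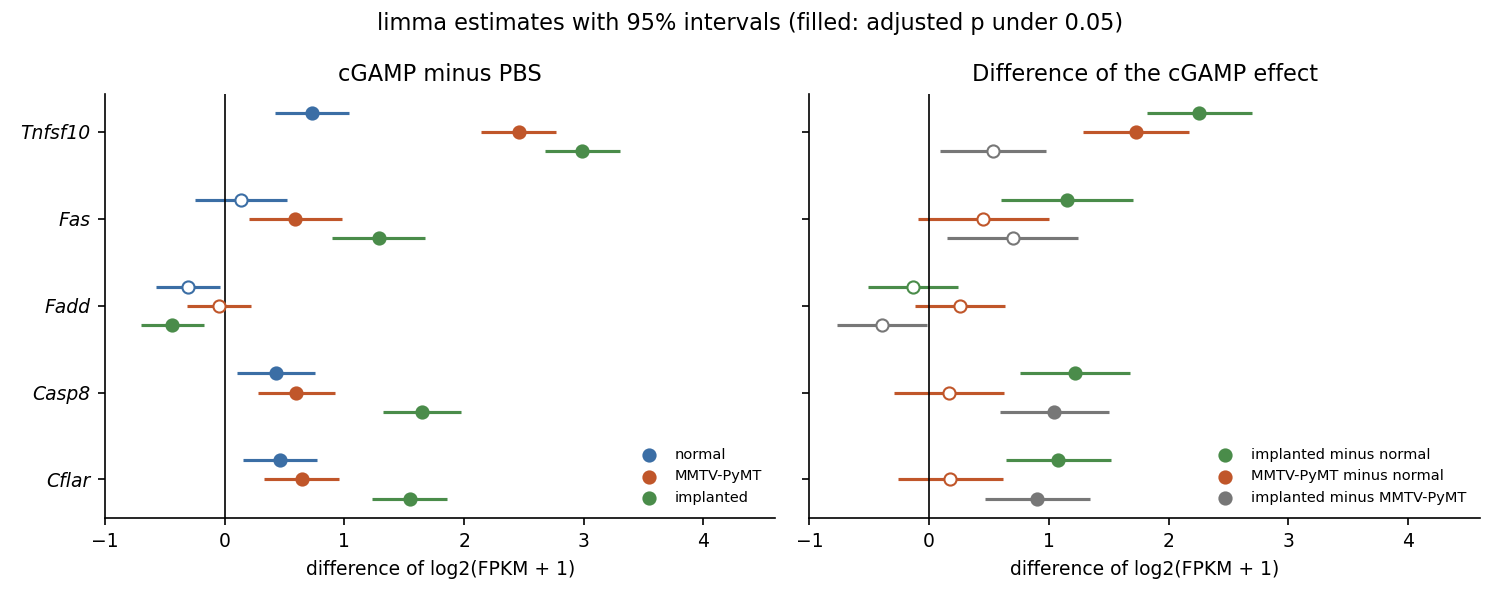
limma estimates with 95% intervals on the log2(FPKM + 1) scale for the 4 members and Casp8, as cGAMP minus PBS in each tissue (left) and as the difference of that effect between tissues (right), with filled points where the adjusted p is under 0.05. Tnfsf10, Casp8 and Cflar passed as higher in all 3 tissues and Fas in both tumours, in MMTV-PyMT ECs close to the threshold (adjusted p = 0.0466, limma). Fadd passed as lower in implanted ECs only, and its interval in MMTV-PyMT ECs spans 0.

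Whether the response differed between tissues was tested as the difference of the cGAMP effect. Tnfsf10 rose more in implanted than in normal ECs, by 2.26 log2 units (95% interval 1.816 to 2.699, adjusted p = 8.68e-06, limma), and more in MMTV-PyMT than in normal ECs, by 1.73 (1.29 to 2.17, adjusted p = 0.000439). Fas rose more in implanted than in normal ECs, by 1.15 (0.60 to 1.70, adjusted p = 0.00544). Cflar rose more in implanted than in normal ECs, by 1.08 (0.64 to 1.52, adjusted p = 0.00187), and more in implanted than in MMTV-PyMT ECs, by 0.90 (0.46 to 1.34, adjusted p = 0.00933), or 0.59 with quantile normalization, which also passed. So 3 of 4 members passed for implanted against normal, where 18.6% of all genes did, 1 for MMTV-PyMT against normal (8.37%) and 1 for implanted against MMTV-PyMT (11.1%). These comparisons share libraries and are not independent.

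Between the tumours, the rise of Tnfsf10 differed by 0.53 (95% interval 0.09 to 0.97, adjusted p = 0.12) and that of Fas by 0.70 (0.15 to 1.25, adjusted p = 0.0986). Neither passed after adjustment. The Tnfsf10 difference was 0.0377 with quantile normalization (adjusted p = 0.927), 0.34 with scaling by total reads and 0.35 without MMTV-PyMT cGAMP 1, so its size depends on the scaling. For Fas the difference was 0.89 and passed without MMTV-PyMT PBS 3. Fadd passed in no difference of effects. Its values were -0.39 (95% interval -0.77 to -0.01) for implanted minus MMTV-PyMT, -0.13 for implanted minus normal and 0.26 for MMTV-PyMT minus normal.

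The levels of the members were then compared between tissues, first at rest. Under PBS, 1 member passed between implanted and MMTV-PyMT ECs (Tnfsf10, 1.35 higher in implanted, adjusted p = 3.84e-06, limma), where 45.5% of all genes passed in either direction. Between implanted and normal ECs 2 passed (48.7% of all genes), namely Fas and Fadd, the latter 0.36 higher in implanted (adjusted p = 0.0259). That Fadd call was lost without normal PBS 1 (0.29), normal PBS 3 (0.32) or implanted PBS 1 (0.25) and with scaling by total reads (0.21). Between MMTV-PyMT and normal ECs 3 passed as lower in MMTV-PyMT (56.5% of all genes), namely Tnfsf10, Fas and Cflar, the last at a log2 difference of -0.55 (adjusted p = 0.00464). With shares this high over all genes, these counts say little about the members as a set, and the tissue differences are given as levels.

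Under cGAMP, 2 members passed between implanted and MMTV-PyMT ECs (50.9% of all genes). Tnfsf10 was 1.89 log2 units higher in implanted (adjusted p = 8.23e-08, limma) and Cflar 1.23 higher (adjusted p = 5.32e-06). Between implanted and normal ECs 3 passed (56.1% of all genes), with Tnfsf10 2.11 higher, Cflar 0.86 higher and Fas lower. The Cflar difference still passed at 0.38 when libraries were scaled by total reads and at 0.43 after quantile normalization. Between MMTV-PyMT and normal ECs 3 passed (50.8% of all genes), with Fas lower, Fadd 0.42 higher (adjusted p = 0.0111) and Cflar at -0.37 (adjusted p = 0.0446). This last call was lost in 13 of the 18 fits that each left out 1 library, with values down to -0.26 without MMTV-PyMT cGAMP 1.

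Casp8, the protease that Fadd recruits and c-FLIP limits, moved with Cflar. Its mean rose from 24.0 to 32.8 FPKM in normal ECs (log2 change 0.43, adjusted p = 0.0417, limma), from 17.4 to 27.1 FPKM in MMTV-PyMT ECs (0.60, adjusted p = 0.0173) and from 26.4 to 85.8 FPKM in implanted ECs (1.65, adjusted p = 3.77e-07). The Casp8 call in normal ECs was lost without any of the 6 normal libraries, MMTV-PyMT PBS 2 or MMTV-PyMT cGAMP 3 (0.36 to 0.47), and that in MMTV-PyMT ECs without MMTV-PyMT PBS 3, cGAMP 2 or cGAMP 3 (lowest 0.47). The ratio of Cflar to Casp8 within a library does not depend on library scaling. Its geometric mean was 0.562 under PBS and 0.582 under cGAMP in normal ECs, 0.513 and 0.539 in MMTV-PyMT ECs, and 0.436 and 0.419 in implanted ECs. The cGAMP minus PBS differences of the log2 ratio were 0.05, 0.07 and -0.06 (2-sided exact permutation p = 0.8, 0.6 and 0.9, n = 3 against 3, where 0.1 is the smallest p possible). In no tissue did all cGAMP libraries lie on one side of all PBS libraries, and leaving out 1 library turned the sign in each tissue. The ratio lay between 0.38 and 0.649 in all 18 libraries while both genes changed level, and 3 libraries a group cannot show that it was equal.

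The ratio of Cflar to the adaptor Fadd did move. In normal ECs it was 4.46, 3.23 and 4.63 under PBS and 8.41, 8.10 and 6.40 under cGAMP. In MMTV-PyMT ECs it was 2.09, 2.62 and 2.30 under PBS and 3.29, 4.50 and 4.06 under cGAMP. In implanted ECs it was 2.09, 2.79 and 2.71 under PBS and 16.1, 10.1 and 8.99 under cGAMP. All cGAMP libraries lay above all PBS libraries in each tissue, with log2 differences of 0.90, 0.75 and 2.18, each at the smallest exact permutation p of 0.1 (2-sided, n = 3 against 3), which cannot pass 0.05. In normal and implanted ECs this separation had to follow. There, every cGAMP library lay above every PBS library in Cflar and below every one in Fadd. In MMTV-PyMT ECs, where Fadd changed by -0.05, the ratio mainly restates the rise of Cflar.

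**Figure D3:**
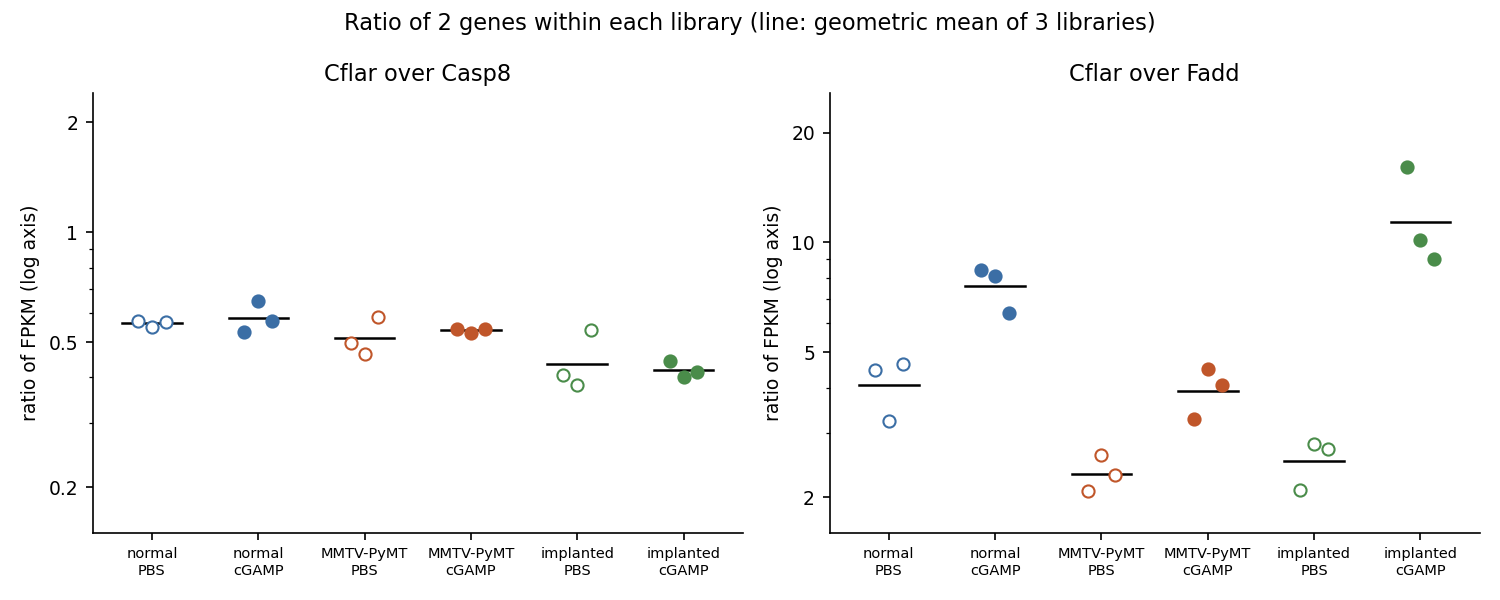
Ratio of FPKM within each library (log axis) by group, for Cflar over Casp8 (left) and Cflar over Fadd (right), with open points for PBS, filled points for cGAMP and a line at the geometric mean of 3 libraries. Cflar over Casp8 stays between 0.38 and 0.649, and Cflar over Fadd is higher under cGAMP in each tissue, up to 16.1 in implanted cGAMP 1.

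Around the members, 4 lists of pathway genes were followed, and their counts stand beside the shares of all tested genes that passed as higher and as lower, which were 13.7% and 18.2% in normal, 7.42% and 4.57% in MMTV-PyMT and 20.3% and 18.8% in implanted ECs. The first list held the ligands and receptors of TRAIL and Fas, the members Tnfsf10 and Fas included, and 7 of its 8 genes were listed and tested. In normal ECs 2 passed as higher (Tnfsf10 and Tnfrsf10b) and 3 as lower (Tnfrsf22, Tnfrsf23 and Tnfrsf26), with a median log2 change of -0.15. In each tumour 4 passed as higher (Tnfsf10, Fas, Tnfrsf23 and Tnfrsf11b) and none as lower, with medians of 0.47 in MMTV-PyMT and 0.56 in implanted ECs, beside -0.04 and -0.01 over all genes. Without 1 library at a time these counts kept their values in normal and implanted ECs, and 2 to 4 passed as higher in MMTV-PyMT ECs. Of the 5 genes here that are not members, 1 passed in opposite directions, Tnfrsf23, which was lower in normal and higher in both tumours.

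Tnfrsf10b, the TRAIL receptor of the mouse that carries a death domain, averaged 6.07 FPKM in normal PBS and 12.4 FPKM in normal cGAMP (log2 change 0.91, adjusted p = 0.000575, limma). In MMTV-PyMT ECs its means were 10.6 and 10.4 FPKM (-0.02, adjusted p = 0.961), and in implanted ECs 8.71 and 7.65 FPKM (-0.18, adjusted p = 0.409). The difference of its effect passed for implanted minus normal (-1.09, adjusted p = 0.00359) and for MMTV-PyMT minus normal (-0.93, adjusted p = 0.0214), the latter not without MMTV-PyMT PBS 1, MMTV-PyMT cGAMP 3, normal PBS 2 or normal cGAMP 3. The decoy receptors Tnfrsf22 and Tnfrsf23, which bind TRAIL and lack a death domain, and Tnfrsf26, from the same receptor cluster, all fell in normal ECs (-0.93, -0.70 and -0.81), and Tnfrsf23 rose in MMTV-PyMT (0.47, adjusted p = 0.035) and implanted ECs (0.56, adjusted p = 0.00464), the former call being lost without any of the 6 MMTV-PyMT libraries (0.42 to 0.4985). Tnfrsf23 averaged 15.8 FPKM in implanted PBS and 24.1 FPKM in implanted cGAMP, above its 1.71 to 3.79 FPKM in the other 4 groups. Tnfrsf22 and Tnfrsf23 are close relatives, and reads that fit both could have been split or dropped in the counting. Tnfrsf11b encodes osteoprotegerin, a soluble receptor that binds TRAIL. It averaged 0.540 FPKM in MMTV-PyMT PBS and 3.72 FPKM in MMTV-PyMT cGAMP (1.61, adjusted p = 0.000161), and 3.36 and 17.7 FPKM in implanted PBS and cGAMP (2.07, adjusted p = 3.13e-06).

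Of 8 other death ligands and receptors 6 were listed and tested (Lta and Tnfsf15 were not listed), and 2, 2 and 2 passed as higher and 1, 0 and 1 as lower in normal, MMTV-PyMT and implanted ECs. Without 1 library at a time the higher count in MMTV-PyMT ECs was 1 to 2, since the Tnfrsf1a call (0.32) was lost in 14 of 18 fits, and the lower count was 0 to 1 in normal and 1 to 2 in implanted ECs. Tnf, the ligand of the TNF receptors, rose by 2.67, 2.80 and 1.90 in that order. Tnfrsf12a, the receptor of TWEAK, rose in normal (1.47) and implanted ECs (1.12), and Tnfrsf21 (death receptor 6) fell in implanted ECs (-0.94, adjusted p = 8.27e-06, limma).

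Of 13 genes of the death-inducing complex and its regulators, all were listed and 11 were tested (Faim and Faim2 were below the filter). The members Fadd and Cflar are among them, so these counts in part repeat the member results. In normal ECs 4 passed as higher and 2 as lower, in MMTV-PyMT ECs 4 and 0, and for implanted ECs 6 and 2, with medians of 0.12, 0.08 and 0.55. Casp8, Cflar, Ripk1 and Daxx passed as higher in all 3 tissues. Without 1 library at a time, 2 to 4 genes passed as higher in normal and in MMTV-PyMT ECs, as did 6 in the implanted ones, and the lower count was 1 to 2 in normal and 0 to 2 in implanted ECs. Ripk1, the kinase that can join the complex, rose by 0.70, 0.74 and 0.71, a spread between tissues far smaller than that of Cflar. Daxx, a Fas-binding and chromatin protein that is also induced by interferon, rose by 2.72, 2.92 and 3.75. The Fas-associated phosphatase Ptpn13 passed as higher in implanted ECs (0.75), where its effect was larger than in MMTV-PyMT ECs (adjusted p = 0.0178, limma). Its difference from normal ECs (adjusted p = 0.0496) was lost in 17 of 18 fits that each left out 1 library. Pea15a, another death-effector-domain protein that competes for Fadd, passed as lower in normal ECs (-0.63) and in implanted ECs at -0.28, a call lost in 12 of those 18 fits.

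Downstream, 3 of 11 execution genes passed as higher and 2 as lower in normal ECs, 2 and 0 in MMTV-PyMT ECs, and 5 and 1 in implanted ECs. Without 1 library at a time the lower count was 1 to 2 in normal and 0 to 2 in implanted ECs, and the higher counts were 3, 2 to 3 and 5 to 6 in that order. Birc2 and Birc3, the inhibitor of apoptosis proteins cIAP1 and cIAP2, passed as higher in each tissue, with Birc3 at 1.33, 1.28 and 1.81. Bid, which links caspase 8 to mitochondria, rose in normal (0.57) and implanted ECs (1.13).

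**Figure D4:**
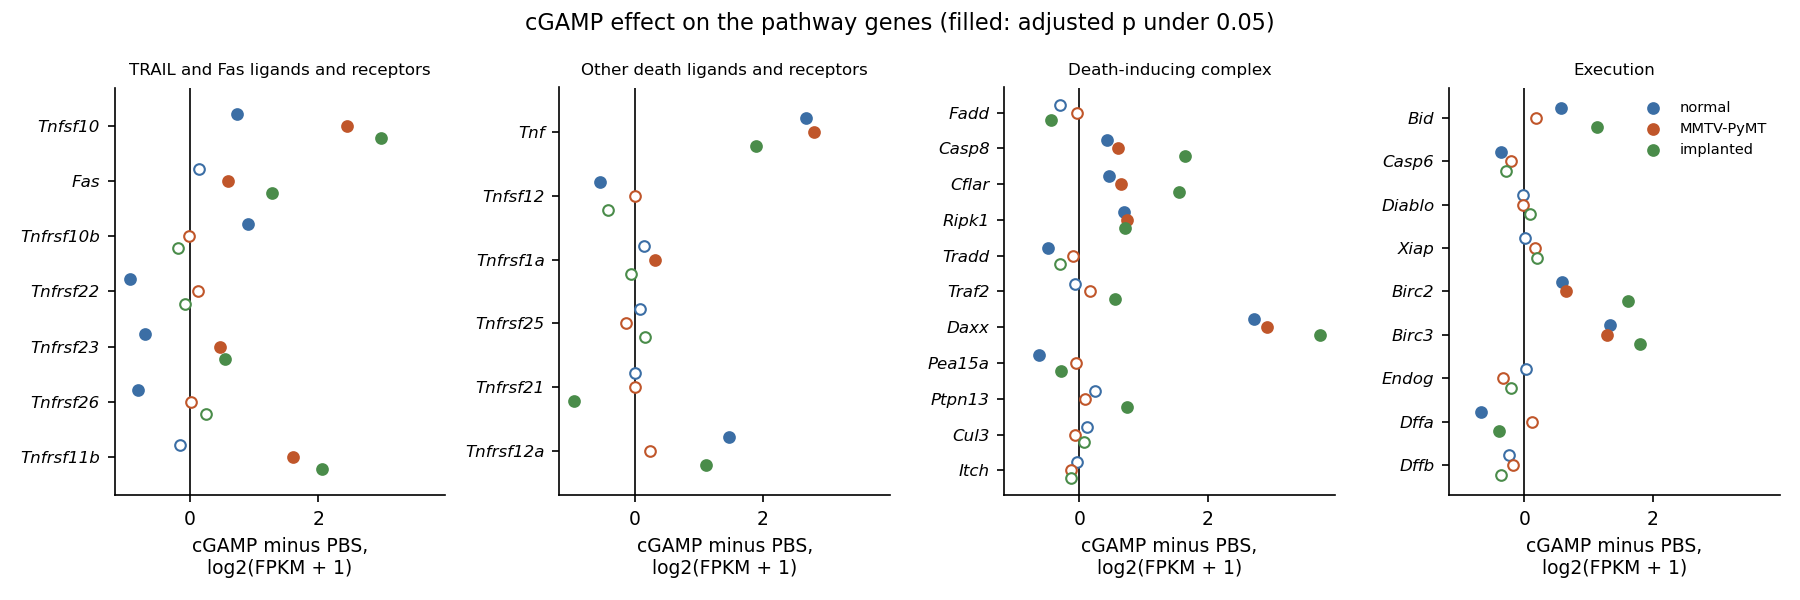
cGAMP minus PBS on the log2(FPKM + 1) scale for tested genes of 4 pathway lists, with blue points for normal, orange for MMTV-PyMT and green for implanted ECs, filled where the adjusted p is under 0.05. Tnfrsf10b lies to the right of 0 in normal ECs (0.91) and the decoy receptors to the left, while Tnfsf10 and Tnfrsf11b lie to the right in both tumours (2.46 and 1.61 in MMTV-PyMT, 2.99 and 2.07 in implanted ECs) and Daxx lies farther right (2.92 and 3.75).

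To set the members beside known responses, 3 short reference lists were followed in the same libraries. All 7 interferon genes, among them Isg15, Ifit1, Irf7, Mx1, Usp18 and Irf1, passed as higher in each tissue, with median changes of 4.03 (normal), 4.75 (MMTV-PyMT) and 4.15 (implanted). Their mean log2(FPKM + 1) was 2.76 to 3.07 in normal PBS, 2.17 to 2.98 in MMTV-PyMT PBS and 4.195 to 4.716 in implanted PBS, so implanted ECs carried more interferon transcripts before cGAMP. After cGAMP it was 6.21 to 6.61, 6.62 to 6.83 and 7.91 to 8.04 in that order.

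Tnfsf10 was set beside this mean as a description, with no test. Normal and MMTV-PyMT PBS libraries overlapped in the interferon mean through MMTV-PyMT PBS 2 (2.985) and differed 3.08-fold in mean Tnfsf10. Implanted PBS lay above normal PBS in the interferon mean in every library, and its Tnfsf10 range overlapped that of normal PBS. Under cGAMP the tissue order of the interferon mean and that of mean Tnfsf10 were the same, although normal and MMTV-PyMT libraries overlapped in Tnfsf10. Isg15 (356, 340 and 889 FPKM in normal, MMTV-PyMT and implanted cGAMP), Ifit1 (756, 811 and 703) and Irf1 (149, 134 and 142) did not have this order. The other interferon genes did. The cGAMP effect on these 3 genes passed as smaller in implanted than in MMTV-PyMT ECs, and that on Mx1 as larger. The Isg15 and Mx1 calls were lost in 5 and 6 of 18 fits without 1 library. Fas did not have the order of the interferon mean, since normal ECs held the highest Fas at a low and at a high interferon mean.

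**Figure D5:**
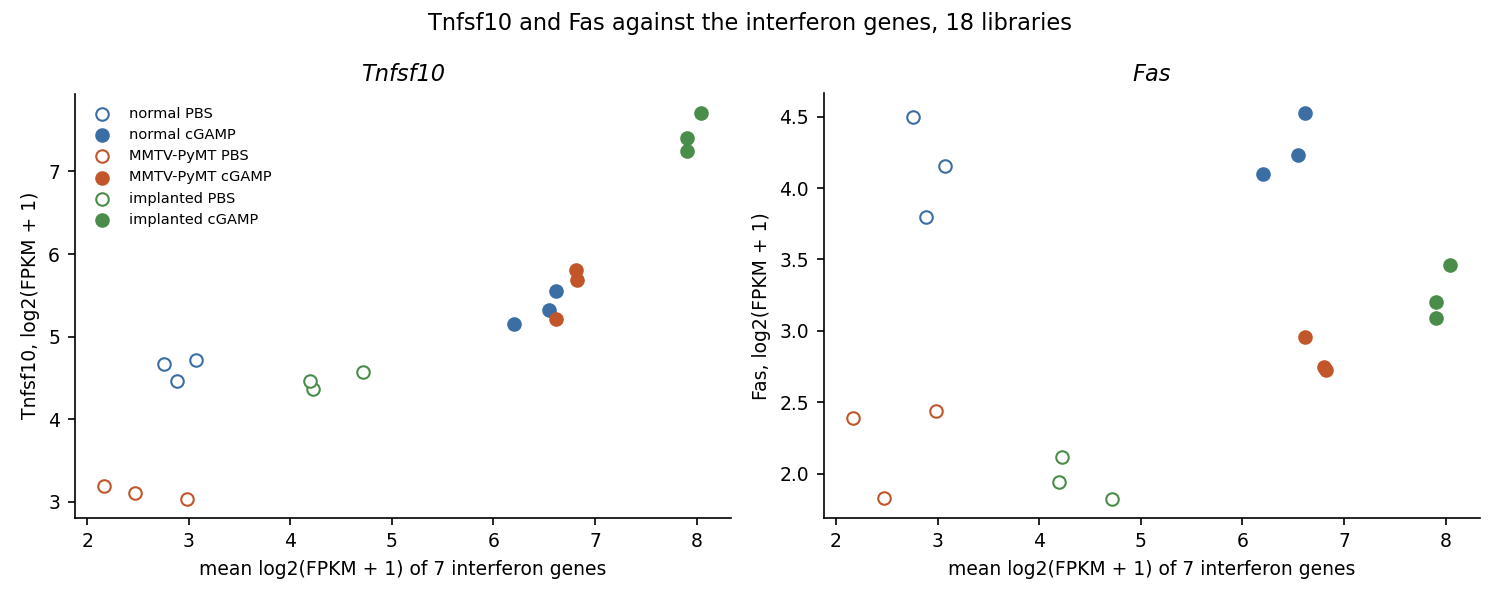
Tnfsf10 (left) and Fas (right) as log2(FPKM + 1) against the mean log2(FPKM + 1) of 7 interferon genes in the 18 libraries, with open points for PBS and filled points for cGAMP. The implanted cGAMP libraries are highest on both axes for Tnfsf10, with interferon means of 7.91 to 8.04, while the normal libraries are highest for Fas whatever the interferon mean.

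All 5 NF-kB reference genes (Nfkbia, Tnfaip3, Icam1, Relb and Nfkb2) passed as higher in each tissue, with median changes of 0.61 (normal), 1.07 (MMTV-PyMT) and 1.18 (implanted), and 4 to 5 did in normal ECs without 1 library at a time. Of 5 p53 reference genes, 2 passed as higher and 1 as lower in normal and in MMTV-PyMT ECs, and 3 and 2 in implanted ECs, beside the shares of all genes given above. Without 1 library at a time the higher count was 1 to 2 in normal ECs, and the lower count was 1 to 2 in MMTV-PyMT and 0 to 2 in implanted ECs. The Mdm2 call in normal ECs (0.28) was lost in 3 of 18 fits and the Trp53inp1 call in implanted ECs (-0.35) in 2. Cdkn1a, a cell cycle inhibitor that p53 and other factors induce, rose by 1.10, 1.39 and 2.28, and Ccng1 fell in normal (-0.66) and implanted ECs (-0.37, not without implanted PBS 2, implanted PBS 3 or implanted cGAMP 1).

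The genes most like each member were found by Pearson correlation of log2(FPKM + 1) over the 18 libraries, which describes 6 groups of 3 libraries and carries no test. For Tnfsf10 they were Tdrd7 (r = 0.984), Ifi35, Nod2, Rnf31 and Phc2. For Cflar they were Rbms1 (0.982), Sec24b, Eda2r, Rab21 and Hivep1. For Fas they were Ccnd2 (0.958), 4930523C07Rik, Stk38l, Pkp4 and Hopx, and each had a higher mean FPKM in normal PBS than in both tumours under PBS, as for Hopx with 12.4 FPKM against 1.51 in MMTV-PyMT and 0.89 in implanted ECs. For Fadd the likeness was weaker, led by Slc26a11 (0.877) and Mrpl34 (0.875), followed by A730017L22Rik, Mfsd11 and Zfp579. Among the members themselves, Tnfsf10 and Cflar were most alike (r = 0.946) and Fas and Fadd most opposed (-0.757).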

How the data were processed

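RNA-seq libraries of sorted ECs were prepared by the authors with a directional kit, and STAR 2.7 (mm10) and HTSeq were used for alignment and gene counts. How counts became FPKM, and whether strand was used, are not given in the sources used here. The deposited table holds FPKM for genes above 0 in all 18 libraries. Columns of normal ECs name only the treatment and were assigned by elimination. FPKM times the exon length of GENCODE M21 gave whole reads (within 0.02 reads) for 15771 of 16012 matched genes (98.49%), all 4 members included. Reads carry no molecular identifiers, so they bound counting error only.

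Genes with FPKM of at least 1 in at least 3 libraries (13983, with 2265 below) were fitted in limma 3.58.1 (R 4.3.3) on log2(FPKM + 1), with 1 mean per group, contrasts, eBayes with a trend, 2-sided tests and Benjamini-Hochberg adjustment, in 12 comparisons. Ratios used exact permutation tests (scipy 1.17.1). The method was tested on simulated data. Replicate pairs differed beyond sampling noise (chi-square per gene from 4.09 to 31.59 in 18 pairs, for genes with at least 10 reads). Where libraries of a group came from separate mice is stated for groups, not for each library, so p-values measure the spread between these libraries. Alternatives changed the pseudocount (0.1), filter (none, or mean FPKM of at least 5), scaling (quantile, or total reads), test (voom on recovered reads), samples fitted, variance prior and replicate block, and left out each library in turn.

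The members and the lists were chosen with earlier results of these data known. List genes were named by largest change (at most 6 a list) or place in the death complex, with likeness genes by the 5 highest correlations, and Tnfrsf23 was named after its values were seen. Values of some list genes are not reported here.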

Additional observations from a re-analysis of the deposited data

Results flagged for a closer look

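For 5 results the cGAMP effect on a member differed between tissues by the limma test of the difference itself, with Benjamini-Hochberg adjustment over 13983 genes. Tnfsf10 rose more in implanted than in normal ECs, by 2.26 on the log2 scale (adjusted p = 8.68e-06), and more in MMTV-PyMT than in normal ECs, by 1.73 (adjusted p = 0.000439). Fas rose more in implanted than in normal ECs, by 1.15 (adjusted p = 0.00544). Cflar rose more in implanted than in MMTV-PyMT ECs, by 0.90 (adjusted p = 0.00933), and more in implanted than in normal ECs, by 1.08 (adjusted p = 0.00187). In each of these, every cGAMP library of the tissue with the larger rise lay above every PBS library of that tissue. These 5 differences passed in every alternative that was run, including each fit without 1 library.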

How the results depend on the processing

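Over 48 member results (4 genes in 12 comparisons) and up to 27 alternatives there were 1284 values, of which 1220 kept direction and side of the threshold, 45 lost the call, 16 gained one and 3 turned sign. In all, 31 results kept both in every alternative run. Fadd has no value under the filter of mean FPKM of at least 5. The cause of a change was not tested.

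Scaling by total reads moved the median change of all genes in implanted ECs from -0.01 to -0.25 and in MMTV-PyMT ECs from -0.04 to -0.14, and the share of higher genes among those passing from 52.0% to 22.2% and from 61.9% to 27.5% (quantile normalization, 39.1% and 49.4%). Relative to that median, the implanted changes were 2.92 for Tnfsf10, 1.25 for Fas, 1.48 for Cflar and -0.42 for Fadd. It also gave -0.33 for Tnfsf10 and -0.39 for Cflar in implanted minus normal under PBS and -0.44 for Fadd in implanted minus MMTV-PyMT under cGAMP, which then passed. It gave 0.48 for Fas in MMTV-PyMT ECs, 0.21 for Fadd in implanted minus normal under PBS and 0.30 for Fadd in MMTV-PyMT minus normal under cGAMP, which no longer passed, and -0.14 for Fadd in implanted minus normal under cGAMP, a turned sign. Quantile normalization let Cflar pass under PBS in implanted minus MMTV-PyMT (0.37, and 0.36 with voom) and implanted minus normal (-0.31).

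Fas in MMTV-PyMT ECs no longer passed at 0.59 without a filter, with own tissues only, with the replicate block and without the trend, nor at 0.74 with voom. Fas in implanted minus MMTV-PyMT under cGAMP passed at 0.44 with the stricter filter and with own tissues only. Fadd in implanted ECs did not pass at -0.44 with own tissues only. Deviations of same-numbered PBS and cGAMP libraries within a tissue correlated at -0.29 to 0.26. The same numbers were not compared across tissues, so this cannot settle whether they mark shared experiments. Besides the Fas call, the replicate block ended the Cflar call in MMTV-PyMT minus normal under cGAMP (-0.37), as did leaving out the trend (-0.37), and changed no other member call.

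Leaving out 1 library at a time gave ranges of 0.39 to 0.70 for Fas in MMTV-PyMT ECs, -0.04 (-0.0396 without normal PBS 1) to 0.31 for Fas in normal ECs, 0.59 to 0.89 for Fas in the implanted minus MMTV-PyMT difference of effects and 0.33 to 0.52 for Fas in implanted minus MMTV-PyMT under cGAMP. For Fadd they were -0.14 to 0.0379 (without MMTV-PyMT PBS 1) in MMTV-PyMT ECs, -0.52 to -0.33 in implanted ECs and 0.25 to 0.47 in implanted minus normal under PBS. For Cflar they were 0.41 to 0.52 in normal ECs, 0.53 to 0.75 in MMTV-PyMT ECs, 0.30 to 0.36 in implanted minus MMTV-PyMT under PBS and -0.48 to -0.26 in MMTV-PyMT minus normal under cGAMP. For Tnfsf10 in MMTV-PyMT minus normal under cGAMP the range was 0.11 to 0.40. The log2 ratio of Cflar to Casp8 changed by -0.0305 (without normal cGAMP 2) to 0.11 in normal, -0.0017 (without MMTV-PyMT PBS 2) to 0.17 in MMTV-PyMT and -0.16 to 0.0925 (without implanted PBS 3) in implanted ECs.

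Counts of genes passing moved by over 1.5 times in MMTV-PyMT ECs (1676, against 3328 with scaling by total reads and 866 to 2085 without 1 library) and in the MMTV-PyMT minus normal difference of effects (1171, against 626 to 1531). With the filter of mean FPKM of at least 5, which tests fewer genes, they fell from 4458 to 2702 in normal and from 5464 to 3301 in implanted ECs. The 3 PBS level counts then were 3920, 4133 and 4543 and the 3 cGAMP level counts 4217, 4657 and 4090, in the order implanted minus MMTV-PyMT, implanted minus normal and MMTV-PyMT minus normal. Read numbers of 49 to 230 for Fas in tumours and for Fadd limit what these 2 genes can show.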
